A study of Mus musculus with 2 samples.

Results

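The crypt stem and progenitor epithelial cells of the small intestine were chosen by their own transcripts. A cell was counted among them when it had at least 1 unique molecular identifier (UMI, the count of 1 captured transcript) of Epcam, no UMI of Ptprc, and a UMI in at least 3 of 8 crypt marker genes. The 8 marker genes were Mki67, Top2a, Lgr5, Olfm4, Slc12a2, Cdca7, Smoc2 and Ascl2. By this rule 120 of 14898 kept cells were crypt cells. They were 89 of 7941 cells in mouse 1 (1.12%, exact Clopper-Pearson 95% interval 0.901 to 1.38%) and 31 of 6957 in mouse 2 (0.446%, 0.303 to 0.632%). The intervals cover counting error only.

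Both libraries came from APC mice, which carried the VilCreER transgene and floxed alleles of Apc (Apc fl/fl). Each of the 2 mice received 2 mg of tamoxifen by intraperitoneal injection on 2 occasions, 24 h apart, and was sampled on day 4. The proximal small intestine, taken 5 to 15 cm along, was chopped and digested, dead cells were removed by sorting with DAPI, and the cells were sequenced as 10x 3′ single-cell libraries. The villin promoter drives the Cre in intestinal epithelium, so that recombination is aimed at the epithelium and not at the immune or stromal cells of the same digest. There was no control genotype, and every comparison below is between classes of cells within the same 2 mice. The class of a cell was set from transcripts of that same cell, and nothing in a 3′ count showed whether the cell had recombined Apc.

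The crypt is the dividing compartment of the intestinal epithelium. Stem cells at its base, marked by Lgr5, renew themselves under WNT ligands from their neighbours, and their daughters divide rapidly higher in the crypt before they leave the cell cycle and become absorptive enterocytes or secretory goblet, Paneth and enteroendocrine cells. APC belongs to the complex that targets β-catenin for degradation, and its loss leaves β-catenin free to act with TCF factors on WNT target genes.

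The depth of the libraries differed. Mouse 1 had 85670711 deposited UMIs in 9645 barcodes and mouse 2 had 38716743 in 8800. The crypt cells held a median of 13022 UMIs in mouse 1 (range 1145 to 155278) and 20936 in mouse 2 (668 to 49930). The other cells with Epcam and without Ptprc held 8627 and 8801, and all other kept cells 4342.5 and 2798.5. The deposited libraries shared 24 cell barcodes, none of them a crypt cell. Mitochondrial UMIs made up under 0.1% of the total in 54 of the 89 crypt cells (60.7%) and 14 of the 31 (45.2%), against 42.3% and 37.3% of the other cells with Epcam and without Ptprc, and 9.11% and 2.86% of all other kept cells. In mouse 2 the exact intervals of the crypt cells and the other Epcam cells overlapped. The part of this difference in the results was not tested.

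The genes that chose the cells are given as a description, without a test. Cdca7, a MYC target gene of dividing cells, had a UMI in 91.0% of the crypt cells of mouse 1 and 90.3% of those of mouse 2. Top2a, the topoisomerase of dividing cells, was found in 75.3% and 74.2%, and Mki67, the proliferation antigen, in 62.9% and 71.0%. These 3 genes were seen in most crypt cells of both mice. Olfm4, a secreted protein of the crypt base, was seen in 65.2% and 61.3%, Slc12a2, an ion cotransporter, in 69.7% and 67.7%, and Ascl2, the WNT-driven transcription factor of stem cells, in 52.8% and 41.9%. Lgr5, the R-spondin receptor of stem cells, was detected in 16.9% of cells in mouse 1 and 41.9% in mouse 2, and Smoc2 in 38.2% and 58.1%. These last 2 genes were detected in a larger share of cells in mouse 2, where the crypt cells were also deeper. Levels are given as CPM (the UMIs of a gene over all UMIs of the class, scaled to the same total in every class). Lgr5 stood at 25.1 and 67.8 CPM and Smoc2 at 67.0 and 110 CPM. With each cell thinned to 2000 UMIs, the mean share with Lgr5 over random draws was 4.37% and 10.8%. The part of depth in these gaps was not tested. In the other cells with Epcam and without Ptprc, Lgr5 was detected in 0.0982% and 0.889% and Olfm4 in 1.38% and in none of 225 cells, which allows a share of up to 1.33%.

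**Figure D1:**
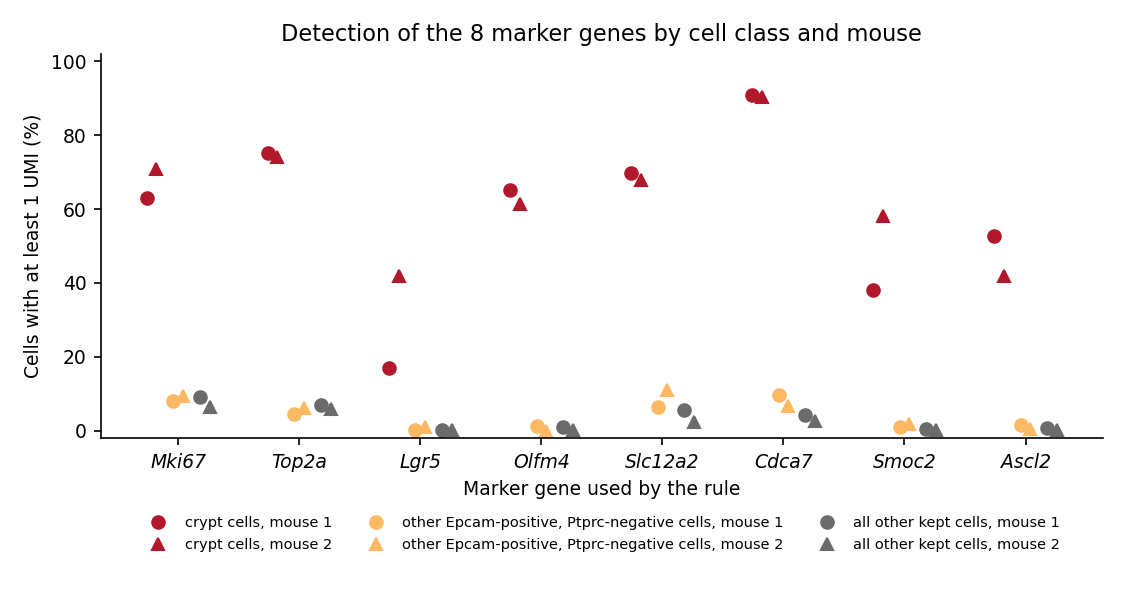
Share of cells (%, vertical axis) with a UMI of each of the 8 marker genes that chose the crypt cells, for crypt cells, the other cells with Epcam and without Ptprc, and all other kept cells. Circles are mouse 1 and triangles mouse 2. Cdca7 lay at 91.0% and 90.3% in crypt cells, and Lgr5 at 16.9% and 41.9%, the widest gap between the mice among the 8 genes.

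The overlap of the 8 marker genes within cells follows from the values that chose the cells, and is given as a description. Any of Lgr5, Olfm4, Smoc2 and Ascl2 was detected in 78 of the 89 crypt cells and 27 of the 31, and Mki67 or Top2a in 81 and 27. Of the cells with Lgr5, 14 of 15 in mouse 1 and 9 of 13 in mouse 2 also had a UMI of Mki67 or Top2a. A cell without any of the 4 stem cell genes could meet the rule only with Mki67 or Top2a, which fixed the outcome for the 11 and 4 such cells.

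Just inside the threshold of the rule, with 3 marker genes, lay 21 and 6 cells, with median depths of 10218 and 6449.5 UMIs. The J chain gene of secreted antibodies, Jchain, was at 8657 and 8096 CPM in them. Just outside it, with 2 marker genes, lay 46 and 12 cells with median depths of 15908 and 14179 UMIs and Jchain at 30360 and 18620 CPM. All 8 genes were found in 6 and 2 cells.

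The epithelial label was checked on 8 genes outside the rule, Cdh1, Krt8, Krt18, Krt19, Vil1, Elf3, Cldn7 and Lgals4. At least 4 of them were detected in 84 of the 89 crypt cells and 27 of the 31. Krt8, a keratin of simple epithelia, stood at 979 and 856 CPM in crypt cells against 112 and 54.4 in all other kept cells. Markers of other lineages were low. The 10 T and innate lymphoid genes together made up 0.00277% and 0.00286% of crypt cell UMIs, the 10 stromal and endothelial genes 0.000258% and 0.000151% with 8 and 9 of them at 0, and the 8 tuft cell genes 0.000193% and 0.00121%. The 10 myeloid genes made up 0.0220% and 0.0158%. At least 3 of the 9 acinar genes of the pancreas in the data were detected in 85 of the 89 crypt cells of mouse 1 (95.5%) and in 0 of the 31 of mouse 2. They made up 0.060% and 0.00573% of UMIs. In mouse 1 at least 3 were also detected in 91.5% of the other Epcam cells and 87.9% of all other kept cells. In the other Epcam cells of mouse 1 the acinar genes reached 1.59% of UMIs. By these genes most of the crypt cells were epithelial, but the lowest cell of each mouse had 0 of the 8 epithelial genes. Transcripts of plasma cells and enterocytes were also found in many crypt cells. At least 3 of 10 B and plasma cell genes were detected in 33 of the 89 (37.1%) and 8 of the 31 (25.8%). The shares were 51.3% and 44.4% of the other Epcam cells and 49.0% and 13.6% of all other kept cells. The antibody light chain Igkc was found in all 89 and all 31. At least 3 of 12 enterocyte genes were detected in 42 (47.2%) and 12 (38.7%). Here the shares were 56.6% and 44.0% of the other Epcam cells and 13.3% and 3.21% of all other kept cells.

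The cells that served for comparison were less uniform. Of the 1018 and 225 other cells with Epcam and without Ptprc, only 501 and 96 had 4 of the 8 epithelial genes. Immunoglobulin genes, the product of plasma cells, made up 42.0% and 44.6% of the UMIs of these other Epcam cells, against 1.49% and 0.568% in crypt cells. With 4 epithelial genes required in both classes they made up 4.52% and 2.25% in the comparison cells. The comparison was therefore run both ways, with the stricter classes chosen after seeing the data. The stricter comparison cells are called here the other epithelial cells. Fits against them used only the 84 and 27 crypt cells with 4 epithelial genes. The CPM values and UMI shares of crypt cells printed beside these fits are of all 89 and 31. The trimmed mean of M values (TMM), which scaled the tests, lowered the CPM ratios against all other Epcam cells by a median of 1.95 and 2.00 fold in the 2 mice. The scaling did so by 1.72 and 1.33 fold against all other kept cells, and by only 1.04 and 1.10 fold against the other epithelial cells. A log2 fold change against all other Epcam cells or all other kept cells is thus lower than its CPM values alone would give.

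Against the other Epcam cells, 1404 of 9326 genes tested were higher in crypt cells (15.1%) and 1545 were lower (16.6%) at an adjusted p under 0.05 in edgeR's quasi-likelihood test with Benjamini-Hochberg adjustment. With the mouse as a block the counts were 2242 and 2388. With 4 of 8 epithelial genes in both classes, 923 of 8132 genes were higher (11.4%) and 942 lower (11.6%), and 1628 and 1643 with the mouse as a block. The same direction and call held in both for 801 of the higher genes, which were 57.1% of the first list and 86.8% of the second, and for 607 of the lower genes (39.3% and 64.4%). Against all other kept cells, most of them immune, 2014 of 13427 genes were higher (15.0%) and 2825 lower (21.0%). All 3 comparisons share the crypt cell sums. Each sum pools the cells of 1 mouse, with 2 mice to a class.

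Genes of the crypt base and of the stem cell state were higher in crypt cells in part. Of 24 such genes, 21 could be tested against the other Epcam cells, of which 8 rose and 1 fell, with a median log2 fold change of 1.66 beside 0.00 over all genes tested. Set against the other epithelial cells, 4 rose and 1 fell of 20, with a median of 0.98 beside 0.07. Blocked by mouse, the counts were 14 higher and 1 lower, and 8 and 2. The cells were selected in part on the stem cell genes Lgr5, Olfm4, Smoc2 and Ascl2, so that these counts in part describe that choice.

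Lrig1, a receptor that restrains growth factor signalling in stem cells, stood at 30.9 and 52.7 CPM in the crypt cells of mouse 1 and mouse 2. In the other epithelial cells it stood at 1.74 and 4.64 CPM, so that the classes lay far apart. The log2 fold change was 3.92 ± 0.58 (SE, n = 2 mice, edgeR adjusted p = 0.0118), and 3.76 against all other Epcam cells (edgeR adjusted p = 0.00413). Rgmb, a BMP co-receptor of crypt base cells, was at 32.9 and 58.8 CPM against 4.71 and 13.9 (log2 fold change 2.42, edgeR adjusted p = 0.0348). Cdk6, the G1 kinase partner of D cyclins, was at 120 and 119 CPM against 42.4 and 29.4 (1.57, edgeR adjusted p = 0.0223). These 3 genes rose against both sets of comparison cells. Clca4b, a regulator of calcium-activated chloride channels, fell and stood at 8.37 and 3.01 CPM against 116 and 52.5 (-3.82, edgeR adjusted p = 0.0152).

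Other stem cell genes were also high in the remaining epithelium. Sox9, a transcription factor of crypt base and Paneth cells, stood at 181 CPM in the crypt cells of mouse 1 and 315 in those of mouse 2. It stood at 163 and 238 CPM in the other epithelial cells and at 13.6 and 9.48 in all other kept cells. It rose against all other Epcam cells (log2 fold change 1.06, edgeR adjusted p = 0.0412), and without cells over 60000 UMIs the adjusted p was 0.0694. The difference from the other epithelial cells was 0.20 ± 0.31 (edgeR adjusted p = 0.681). Cells were also thinned to 2000 UMIs each, which left out 9 and 4 crypt cells. The mean share with Sox9 over all random draws was then 28.1% of crypt cells in mouse 1 and 41.5% in mouse 2, against 14.4% and 12.7% of the other Epcam cells and 2.65% and 0.905% of all other kept cells. Unthinned, the crypt cell shares were 74.2% and 83.9%. No thinned share was taken for the other epithelial cells alone, so these shares do not bear on the difference from them.

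Hopx, known from reserve stem cells and also from villus cells, was at 254 and 408 CPM against 344 and 680 in the other epithelial cells (log2 fold change -0.72, edgeR adjusted p = 0.203, and 0.0235 with the mouse as a block). Cd44, a hyaluronan receptor and WNT target that lymphocytes also carry, depended on the comparison cells. Its level was 71.5 and 99.4 CPM in crypt cells, 16.6 and 26.3 in the other epithelial cells, and 67.3 and 96.1 in all other kept cells. It rose against the other epithelial cells (1.86, edgeR adjusted p = 0.0167), and on the TMM scale had a log2 fold change of -0.45 against all other Epcam cells (edgeR adjusted p = 0.252). Msi1, an RNA-binding protein of stem cells, was at 27.1 and 33.1 CPM and was called against all other Epcam cells (3.05, edgeR adjusted p = 0.0291) but not against the other epithelial cells (2.12, edgeR adjusted p = 0.123, and 0.0165 with the mouse as a block). Prom1 was at 75.4 and 52.7 CPM, with 1 cell holding 50.4% of its UMIs in mouse 1.

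A few members of this group differed between the mice. Ephb2 and Ephb3, receptors that keep cells in the crypt, stood at 18 and 7.73 CPM in mouse 1 and at 45.2 and 55.7 CPM in mouse 2. Neither was called against the other Epcam cells (edgeR adjusted p = 0.213 and 0.159), and both were with the mouse as a block (edgeR adjusted p = 0.00154 and 0.000429). Gkn3, a gastrokine that also marks crypt base cells of the proximal bowel, was at 9332 CPM in mouse 1 and 24.1 in mouse 2. A single cell held 99.3% of its UMIs in mouse 1, and without that cell the level was 69.4 CPM.

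Of 22 WNT target and feedback genes, 17 were tested against the other Epcam cells, and 6 rose, none fell and the median log2 fold change was 1.26. Against the other epithelial cells 3 of 16 rose, with a median of 0.96, and with the mouse as a block the counts were 11 and 6. Without the block 15.1% and 11.4% of all genes tested rose in these fits. Against all other kept cells 14 of 19 rose. This list shares 8 genes with the crypt base list, and its counts also describe in part the choice of the cells.

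Axin2, the feedback inhibitor that WNT signalling induces (gene at chr11:108920349-108950783 on the forward strand of GRCm38), was measured at 105 CPM in mouse 1 and 140 in mouse 2. The other epithelial cells held 86.6 and 94.3 CPM and all other kept cells 8.98 and 6.66. Axin2 therefore set the epithelial classes apart from the rest of the digest more than from each other. The log2 fold change was 3.29 against all other kept cells (edgeR adjusted p = 0.00251), 1.15 ± 0.22 against all other Epcam cells (edgeR adjusted p = 0.0152) and 0.34 ± 0.25 against the other epithelial cells (edgeR adjusted p = 0.357). Axin2 was detected in 69 of the 89 crypt cells and 22 of the 31.

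Myc and Ccnd1, which drive growth and entry into the cell cycle, behaved otherwise. Myc was at 58.0 and 75.3 CPM in crypt cells, 15.6 and 32.5 in the other epithelial cells and 10.7 and 18.7 in all other kept cells. It rose against the other epithelial cells (log2 fold change 1.48, edgeR adjusted p = 0.0472). Ccnd1, cyclin D1, was at 233 and 262 CPM against 89.6 and 92.7, and the 2 classes did not overlap (1.35 ± 0.24, edgeR adjusted p = 0.0162). Thinned to 2000 UMIs, Myc was seen in a mean over draws of 13.7% and 14.4% of crypt cells and 1.64% and 2.24% of the other Epcam cells. The other epithelial cells were not thinned apart. A single draw moved widely at these cell numbers, and 1 of them gave 16 of 80 and 2 of 27 crypt cells. Nkd1, a WNT feedback gene, was at 25.8 and 61.8 CPM and was called against all other Epcam cells (2.22, edgeR adjusted p = 0.0319) and not against the other epithelial cells (1.52, edgeR adjusted p = 0.104). Mmp7, a matrix metalloproteinase of Paneth cells and WNT target, was at 177 and 411 CPM in 24 and 11 cells. Prox1, a target gene in tumours and enteroendocrine cells, was at 16.1 CPM in mouse 1 and 70.8 in mouse 2.

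**Figure D2:**
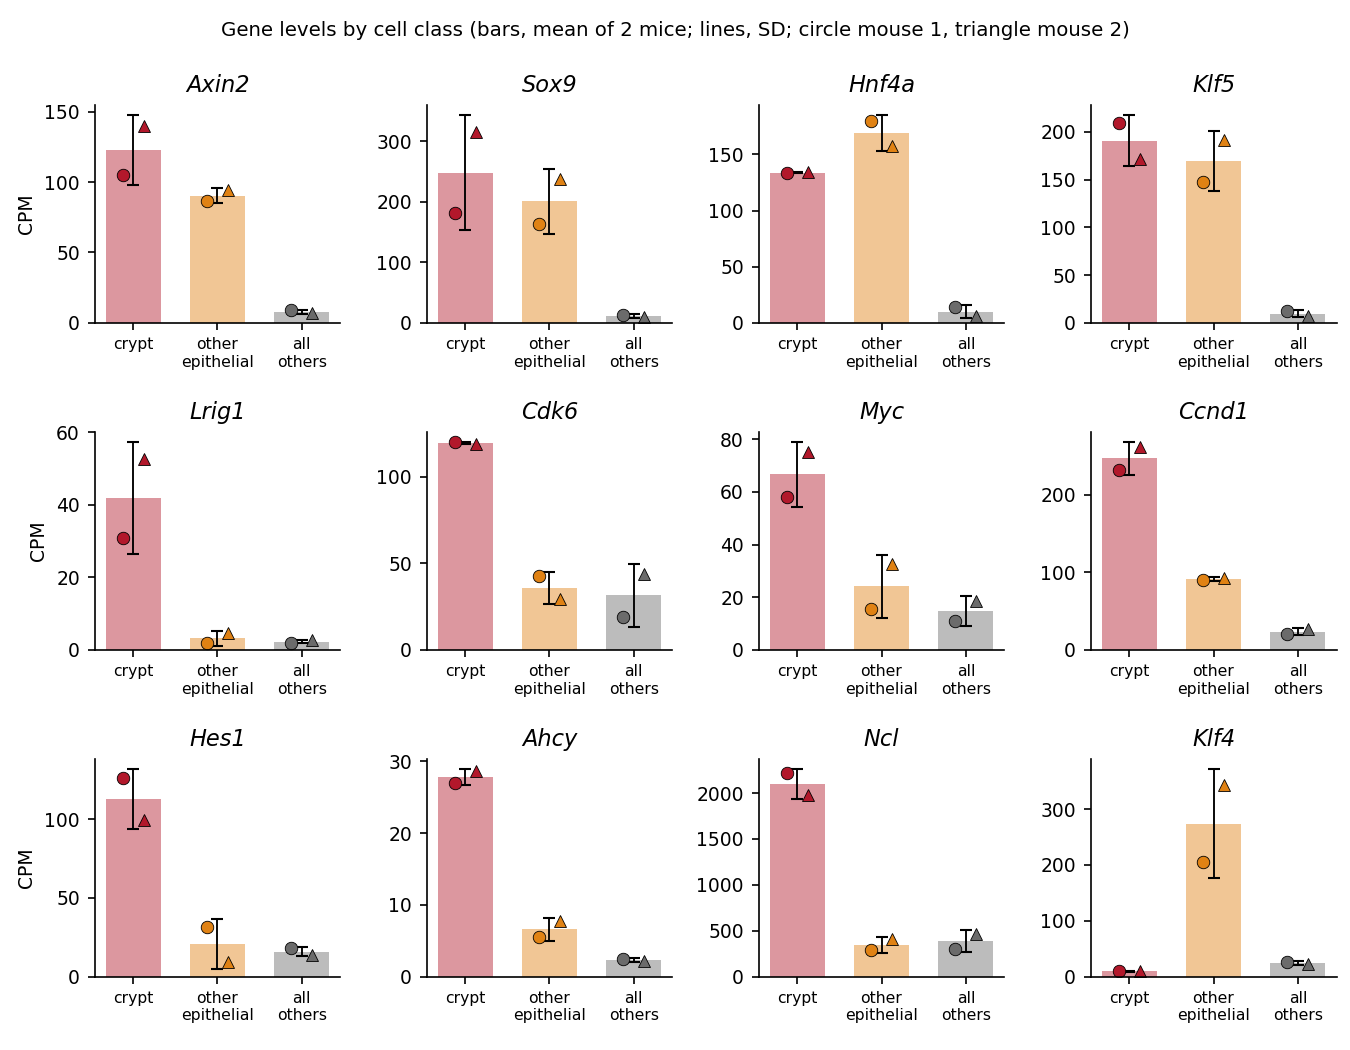
Levels (CPM, vertical axis, linear from 0) of 12 genes in all 89 and 31 crypt cells, in the other epithelial cells (Epcam, no Ptprc, 4 of 8 epithelial genes) and in all other kept cells, which include the second class. Circles are mouse 1 and triangles mouse 2, bars are the mean of 2 mice and lines the SD. Axin2, Sox9, Hnf4a and Klf5 lay close in the 2 epithelial classes, Lrig1, Myc, Hes1, Ahcy and Ncl were highest in crypt cells, and Klf4 was lowest in them.

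Cell cycle genes were higher in crypt cells in nearly every case, and they accompany Mki67 and Top2a, on which the cells were selected, so that their counts describe that choice. Of the S phase genes, which license and copy DNA, 27 of 29 rose against the other Epcam cells with a median log2 fold change of 2.96, and 25 of 29 against the other epithelial cells with a median of 3.14. Of the G2 and M phase genes, which run mitosis, 30 of 31 rose with a median of 4.16 and 29 of 30 with a median of 3.86. None fell in either list. The S phase genes together made up 0.216% and 0.230% of crypt cell UMIs against 0.0358% and 0.0357% in the other epithelial cells, and the G2 and M phase genes 0.312% and 0.30% against 0.0199% and 0.0377%.

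Ccnb1, cyclin B1, was at 69.6 and 67.8 CPM in crypt cells. Its level was 1.24 and 4.64 CPM in the other epithelial cells, and the log2 fold change was 4.98 ± 0.58 (edgeR adjusted p = 0.00739). Birc5, survivin, was at 245 and 215 CPM against 11.2 and 10.8 (4.24, edgeR adjusted p = 0.00572), and Ube2c, which hands ubiquitin to the anaphase-promoting complex, at 465 and 503 CPM against 19.8 and 63.4 (3.59, edgeR adjusted p = 0.0119). Uhrf1 and Hells, which maintain DNA methylation and chromatin at replication, were at 61.8 and 66.3 CPM and at 198 and 199 CPM. Uhrf1 stood at 2.48 and 3.09 CPM and Hells at 13.9 and 18.5 in the other epithelial cells (4.43 and 3.57, edgeR adjusted p = 0.00606 and 0.00597). In all of these genes the crypt cells of both mice lay above both mice of the comparison class. Pcna, the replication clamp, was the shallow end of the S list, at 90.2 and 110 CPM against 71.0 and 69.5 (0.33, edgeR adjusted p = 0.376).

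**Figure D3:**
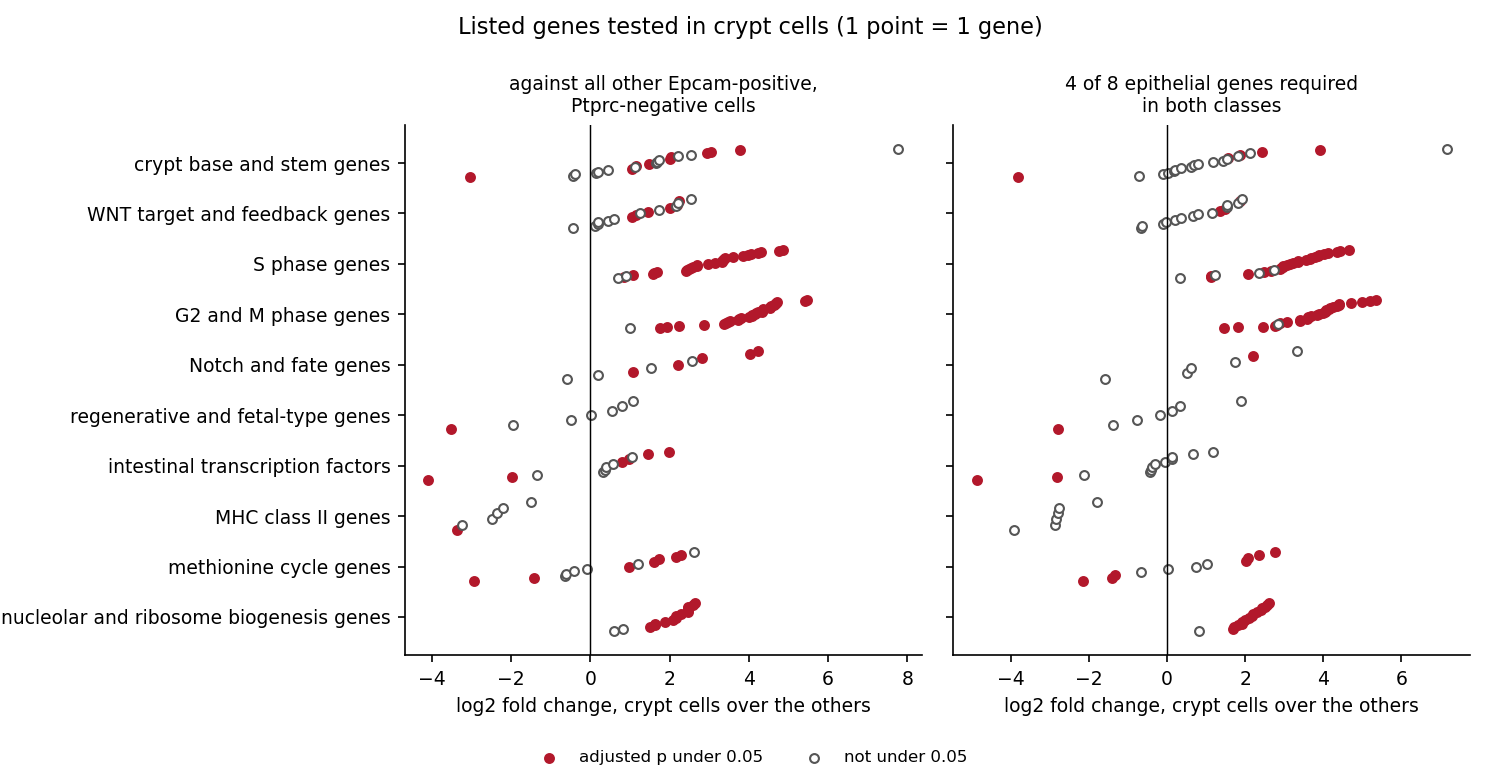
Log2 fold change (horizontal axis) of every tested gene of 10 gene lists in crypt cells, against the other Epcam cells on the left and against the other epithelial cells on the right. Each point is a gene and red marks an edgeR adjusted p under 0.05. The G2 and M phase genes centre on 4.16 and 3.86, and the intestinal transcription factors on 0.47 and -0.35.

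Genes were ranked by log2 fold change among those called with at least 3 UMIs in every sum and at least 20 in each sum of the higher class, and this holds for each group of 10 given below. Under these minimums the 10 highest against the other Epcam cells were Ccnb1, Cdo1, Pbk, Uhrf1, Ccna2, Tpx2, Birc5, Ccnb2, Ect2 and Myb. Most of them act in mitosis or DNA replication. Hmmr, a spindle protein, and Exo1, an exonuclease of DNA repair, had log2 fold changes of 5.43 and 4.75 (edgeR adjusted p = 0.00287 and 0.00458), which lie within the range of these 10, but did not reach the minimums. Cdo1, cysteine dioxygenase, which oxidises cysteine, was at 73.4 and 69.3 CPM in crypt cells and at 1.74 and 4.64 CPM in the other epithelial cells (4.77, edgeR adjusted p = 0.00718). Myb, a transcription factor of colonic and haematopoietic progenitors, was at 74.1 and 116 CPM against 4.47 and 1.55 (4.47, edgeR adjusted p = 0.00718). Pbk, a mitotic kinase, was at 79.9 and 93.4 CPM against 2.98 and 6.18 (4.39, edgeR adjusted p = 0.00630). The histone genes Hist1h1b and Hist1h2ae, Knstrn, Racgap1, Cks1b and Nek2 entered the 10 highest when the other epithelial cells were the comparison.

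The promoters of the mitotic genes were read for letters that cell cycle factors are known to bind, because these genes rose together. Windows of 250 bases before each start were searched on both strands, with RefSeq starts on GRCm38.p6. The search covered 27 of the 32 listed G2 and M phase genes, 22 of the 30 S phase genes and 15 of the 22 WNT genes. Promoters were counted and not genes, so that a gene with several starts entered more than once. CCAAT, the letters of the NF-Y box, was present in 22 of 27 promoters of G2 and M phase genes (81.5%), 16 of 25 of S phase genes (64.0%) and 11120 of all 32851 promoters (33.8%). The cell cycle homology region, searched as TTTGAA or TTCGAA, was present in 8 of 27 (29.6%) against 17.1% of all promoters, and all 8 also held CCAAT. An E2F site, searched as TTTCGCGC or TTTGGCGC, was found in 4 of 25 S phase promoters (16.0%) and 0.654% of all. A TCF site, searched as CTTTGAT or CTTTGAA, was found in 3 of 23 promoters of the WNT list (13.0%) and 7.48% of all. CTTTGAA contains TTTGAA, so the TCF and cell cycle motifs overlap. These are matches of letters and not measured sites. The stretches below, from 3 genes of the G2 and M phase list, show their CCAAT boxes. Each is the 120 bases next to the start. Those of Cdk1 and Ube2c also hold the cell cycle homology letters. The stretch of Ccnb2 does not, but its full window of 250 bases does. Capitals mark both motifs on either strand. Ccnb2 lies at chr9:70421555-70421674 on the reverse strand, Cdk1 at chr10:69352913-69353032 on the reverse strand and Ube2c at chr2:164769809-164769928 on the forward strand.
Ccnb2: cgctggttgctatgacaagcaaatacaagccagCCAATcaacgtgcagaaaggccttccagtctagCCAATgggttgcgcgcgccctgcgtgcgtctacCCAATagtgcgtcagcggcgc
Cdk1: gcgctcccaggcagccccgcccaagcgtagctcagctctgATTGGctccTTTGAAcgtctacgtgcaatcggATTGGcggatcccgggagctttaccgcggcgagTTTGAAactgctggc
Ube2c: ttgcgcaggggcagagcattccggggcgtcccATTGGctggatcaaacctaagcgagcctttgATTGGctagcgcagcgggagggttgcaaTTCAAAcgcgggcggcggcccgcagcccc

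Ccnb2 and Cdk1, printed above, were at 98.6 and 69.3 CPM and at 93.4 and 82.9 CPM in crypt cells. In the other epithelial cells Ccnb2 was at 4.96 and 6.18 CPM (log2 fold change 3.89, edgeR adjusted p = 0.00718) and Cdk1 at 4.22 and 9.27 (3.83, edgeR adjusted p = 0.00775).

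Single crypt cells spread along both phases. The S phase share of a cell's UMIs had a median of 0.241% in both mice and reached 0.552% and 0.464%. The G2 and M share had a median of 0.303% in mouse 1 and 0.252% in mouse 2, and reached 0.90% and 0.843%. The lowest cell was at 0 for either list in each mouse, and a shallow cell can miss either set.

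**Figure D4:**
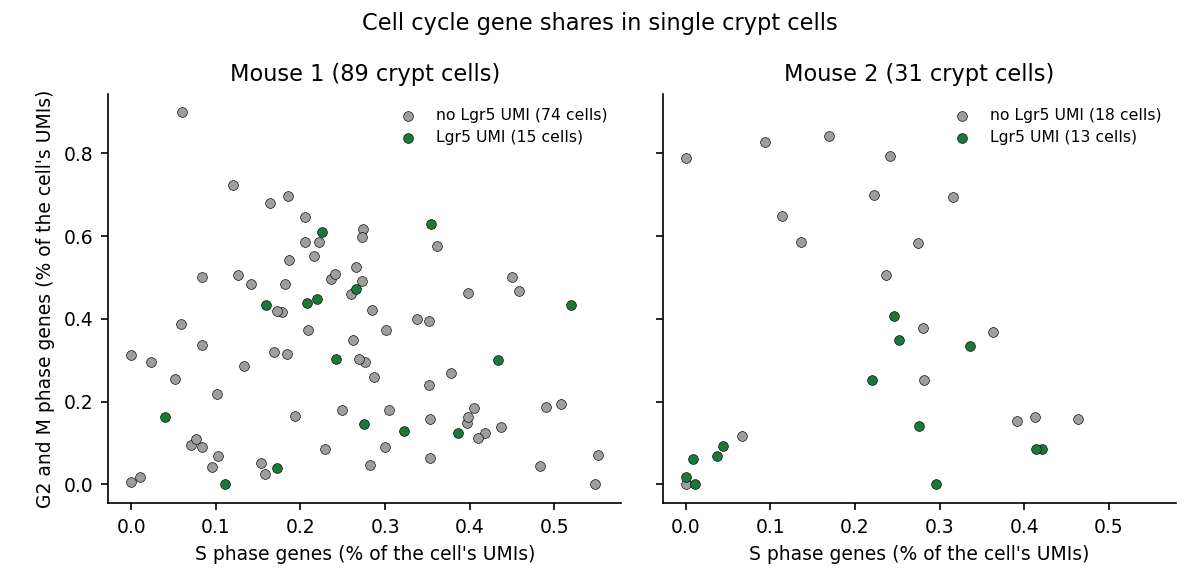
Share of UMIs in S phase genes (%, horizontal axis) and in G2 and M phase genes (%, vertical axis) of each crypt cell, with mouse 1 and mouse 2 in separate panels. Green points carry an Lgr5 UMI. The cells spread along both axes, and in mouse 2 the Lgr5 cells lie low on the vertical axis, with a median of 0.0858% against 0.544% for the others.

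Nucleolar and ribosome biogenesis genes, which make ribosomal RNA and assemble ribosomes, rose in crypt cells against every comparison class. Of 16 genes, 14 rose against the other Epcam cells (median log2 fold change 2.16), 15 against the other epithelial cells (2.13) and 15 against all other kept cells (1.56). Together they made up 0.808% and 0.738% of crypt cell UMIs, 0.141% and 0.176% in the other epithelial cells and 0.109% and 0.165% in all other kept cells. Ncl, nucleolin, was at 2215 and 1980 CPM in crypt cells against 286 and 410 CPM (2.52 ± 0.27, edgeR adjusted p = 0.00718). Npm1, nucleophosmin, was at 3584 and 3300 CPM against 585 and 828 (2.21, edgeR adjusted p = 0.00734). Fbl, the rRNA methyltransferase fibrillarin, was at 279 and 246 CPM against 53.3 and 35.5 (2.41, edgeR adjusted p = 0.0110). Ncl was found in 88 of the 89 crypt cells and 29 of the 31.

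The methionine cycle turns methionine into the methyl donor S-adenosylmethionine and clears its product, S-adenosylhomocysteine, through AHCY. Of 17 genes of the cycle and its users, 13 were tested against the other Epcam cells, and 5 rose and 2 fell with a median log2 fold change of 0.97. Against the other epithelial cells 4 of 11 rose and 3 fell, with a median of 0.73. Ahcy (chr2:155059310-155074497, reverse strand, GRCm38) stood at 27.1 CPM in mouse 1 and 28.6 in mouse 2. Its level was 5.46 and 7.73 CPM in the other epithelial cells and 2.48 and 2.13 in all other kept cells, so that the classes did not overlap. The log2 fold change was 2.06 ± 0.42 against the other epithelial cells (edgeR adjusted p = 0.0218), 2.27 ± 0.36 against all other Epcam cells (edgeR adjusted p = 0.00884) and 2.95 against all other kept cells (edgeR adjusted p = 0.00457).

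Ahcy was a sparse gene in single cells. It was detected in 30 of the 89 crypt cells (33.7%) and 12 of the 31 (38.7%), against 3.05% and 2.67% of the other Epcam cells. Thinned to 2000 UMIs the mean shares over draws were 5.2% and 5.57% in crypt cells and 0.561% and 0.492% in the other Epcam cells, with none taken for the other epithelial cells alone. In 1 such draw 3 of 80 and 2 of 27 crypt cells held it, and the exact intervals of crypt cells and comparison cells overlapped in both mice.

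The relatives of Ahcy were lower in crypt cells than in the other epithelial cells. Ahcyl1 and Ahcyl2, AHCY-like proteins that act in ion transport and calcium release, were at 107 and 116 CPM and at 62.5 and 66.3 CPM in crypt cells. In the other epithelial cells Ahcyl1 was at 265 and 261 CPM (log2 fold change -1.34, edgeR adjusted p = 0.0167) and Ahcyl2 at 317 and 221 (-2.16, edgeR adjusted p = 0.0114). Against all other Epcam cells Ahcyl2 fell as well (-1.44, edgeR adjusted p = 0.0214), and Ahcyl1 was not called (-0.65, edgeR adjusted p = 0.0771, and 0.00787 with the mouse as a block). Mat2a, which makes S-adenosylmethionine, was at 137 and 181 CPM against 87.8 and 86.5. It was called against all other Epcam cells (0.97, edgeR adjusted p = 0.0233) and not against the other epithelial cells (0.73, edgeR adjusted p = 0.0818, and 0.0279 with the mouse as a block). Dnmt1, the maintenance DNA methyltransferase, was at 87.0 and 82.9 CPM against 11.7 and 10.8 (2.77, edgeR adjusted p = 0.00739), and Prmt1, an arginine methyltransferase, at 224 and 190 CPM against 36.2 and 40.2 (2.36, edgeR adjusted p = 0.00851). Mtap, which salvages methylthioadenosine, was at 59.3 and 33.1 CPM against 13.6 and 6.18 (2.01, edgeR adjusted p = 0.0491). Cth, which makes cysteine from cystathionine, was lower, at 16.7 and 27.1 CPM against 49.6 and 57.2 (-1.40, edgeR adjusted p = 0.0334). It was not called against all other Epcam cells (-0.62, edgeR adjusted p = 0.189) and rose against all other kept cells (2.01, edgeR adjusted p = 0.0359).

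The transcription factors of intestinal identity were detected in both epithelial classes, and Klf4 and Hnf4g were the ones lower in crypt cells. Of 12 such genes, 4 rose and 2 fell against the other Epcam cells (median log2 fold change 0.47). Against the other epithelial cells none rose and 2 fell (median -0.35), and with the mouse as a block 1 rose and 3 fell. Among all genes tested 15.1% rose and 16.6% fell in the first fit, and 11.4% and 11.6% in the second. Hnf4a was at 133 and 134 CPM in crypt cells and 180 and 158 in the other epithelial cells (-0.42, edgeR adjusted p = 0.274). Cdx2, the factor of intestinal fate, was at 72.2 and 88.9 CPM against 44.4 and 52.5 (0.65, edgeR adjusted p = 0.122). Klf5, a factor of dividing crypt cells, was at 209 and 172 CPM against 147 and 192 (0.11, edgeR adjusted p = 0.797). For these 3 genes the test did not separate the 2 epithelial classes. Klf4, which accompanies exit from the cell cycle, was at 9.66 and 9.04 CPM in crypt cells against 205 and 343 (-4.89 ± 0.38, edgeR adjusted p = 0.00572). Hnf4g, an enterocyte factor, was at 11.0 and 22.6 CPM against 78.4 and 138 (-2.82, edgeR adjusted p = 0.0124).

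Of the Notch and fate genes, 5 of 9 tested rose against the other Epcam cells, namely Hes1, Dll4, Atoh1, Spdef and Hes6, with a median log2 fold change of 2.22. The share of all genes tested that rose was 15.1%, and 11.4% against the other epithelial cells. Against the other epithelial cells 1 of 6 rose, and with the mouse as a block 3 rose and 1 fell. That 1 gene was Hes1, the Notch effector that holds back secretory fate, at 126 and 99.4 CPM in crypt cells against 31.8 and 9.27 (2.19, edgeR adjusted p = 0.0375). Atoh1 and Spdef, which set secretory fate, were confined to few cells. A UMI of either was found in 5 of the 89 crypt cells (5.62%) and 7 of the 31 (22.6%). Of these cells 5 and 6 also had Mki67 or Top2a, as did 81 of the 89 and 27 of the 31 crypt cells. Mki67 and Top2a are genes of the rule, so that this overlap describes the choice of the cells. Neurog3, the enteroendocrine factor, was at 0 in the crypt cells of both mice and at 5.46 and 165 CPM in the other epithelial cells. The floor for a count of 0 is 3 UMIs in a class.

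Regenerative and fetal-type genes, which mark epithelium under repair, were few and uneven. Of 7 genes tested against the other epithelial cells, Areg, an EGF receptor ligand, fell and none rose (median log2 fold change -0.18). Over all genes tested 11.4% rose and 11.6% fell in that fit, and 15.1% and 16.6% against the other Epcam cells. Whether the list differs from all genes was not tested. Areg was at 34.8 and 4.52 CPM in crypt cells against 178 and 111 (-2.81, edgeR adjusted p = 0.0474). Its log2 fold change was -1.96 against all other Epcam cells (edgeR adjusted p = 0.0973, and 7.7e-05 with the mouse as a block). Against the other Epcam cells Ly6a, a surface protein of repairing epithelium and of lymphocytes, was the only one called, at 50.2 and 3.01 CPM (-3.52, edgeR adjusted p = 0.0404). Its log2 fold change was 0.13 against the other epithelial cells (edgeR adjusted p = 0.937). Clu, the clusterin of revival stem cells, was at 56.0 CPM in mouse 1, where 1 cell held 67.8% of its UMIs, and at 1.51 in mouse 2. With the mouse as a block 2 rose and 2 fell against the other Epcam cells, and 1 rose and 2 fell against the other epithelial cells.

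MHC class II genes, through which epithelium can present antigen, were low in crypt cells. Together they made up 0.0689% and 0.0137% of crypt cell UMIs, 0.522% and 0.0719% in the other epithelial cells and 0.445% and 0.322% in all other kept cells. Cd74, the invariant chain, was at 414 and 81.4 CPM in crypt cells against 2770 and 413 in the other epithelial cells (log2 fold change -2.87, edgeR adjusted p = 0.137, and 3.6e-05 with the mouse as a block). The level in mouse 1 was well above that in mouse 2 in both classes. Of 6 genes tested, 1 fell against the other Epcam cells and none against the other epithelial cells, where 2 of 6 passed an unadjusted p under 0.05. The share of all genes tested that fell was 16.6% and 11.6% in these fits. With the mouse as a block all 6 fell in both comparisons. Against all other kept cells, which hold the antigen-presenting cells, all 7 fell.

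Enterocyte genes were lower in crypt cells but not absent. They fell in 9 of 11 tested against the other epithelial cells (median log2 fold change -4.95) and in 9 of 11 against the other Epcam cells (-4.06). Fabp1, the fatty acid carrier of enterocytes, was at 264 and 259 CPM in crypt cells against 8380 and 16510 in the other epithelial cells (-5.63 ± 0.37, edgeR adjusted p = 0.00572). Apoa1, of lipoprotein export, was at 138 and 4.52 CPM against 3483 and 3196 (-5.50, edgeR adjusted p = 0.0347). The 12 enterocyte genes together made up 0.153% and 0.13% of crypt cell UMIs against 3.31% and 6.15%.

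Most of these UMIs lay in a few crypt cells, while low counts were widespread. The 3 crypt cells of each mouse with the most enterocyte UMIs held 78.7% and 81.2% of them, and a single cell held 79.5% and 77.9% of the Fabp1 UMIs. At least 3 of the 12 genes were detected in 42 crypt cells of mouse 1 (47.2%) and 12 of mouse 2 (38.7%), against 56.6% and 44.0% of the other Epcam cells. Paneth and goblet genes were uneven between cells and mice. Goblet genes made up 0.157% and 0.498% of crypt cell UMIs against 0.176% and 0.182% in the other epithelial cells, and Paneth genes 0.169% and 0.335% against 0.672% and 0.0172%. A single crypt cell of each mouse held 40.9% and 33.8% of the goblet UMIs and 54.7% and 51.4% of the Paneth UMIs. Lyz1, the lysozyme of Paneth cells, was at 1332 and 2132 CPM, with 58.2% and 68.3% of its UMIs in 1 cell of each mouse. Spink4, a goblet cell gene, was at 455 and 3652 CPM. Against the other epithelial cells none of 7 Paneth genes and none of 7 goblet genes was called by edgeR, with 1 and 2 at an unadjusted p under 0.05 and medians of -2.53 and 1.22. With the mouse as a block 2 rose and 1 fell in either list. Enteroendocrine genes fell in 2 of 5 tested, and in 5 with the block, and in mouse 2 1 cell held 97.9% of the Chga UMIs.

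**Figure D5:**
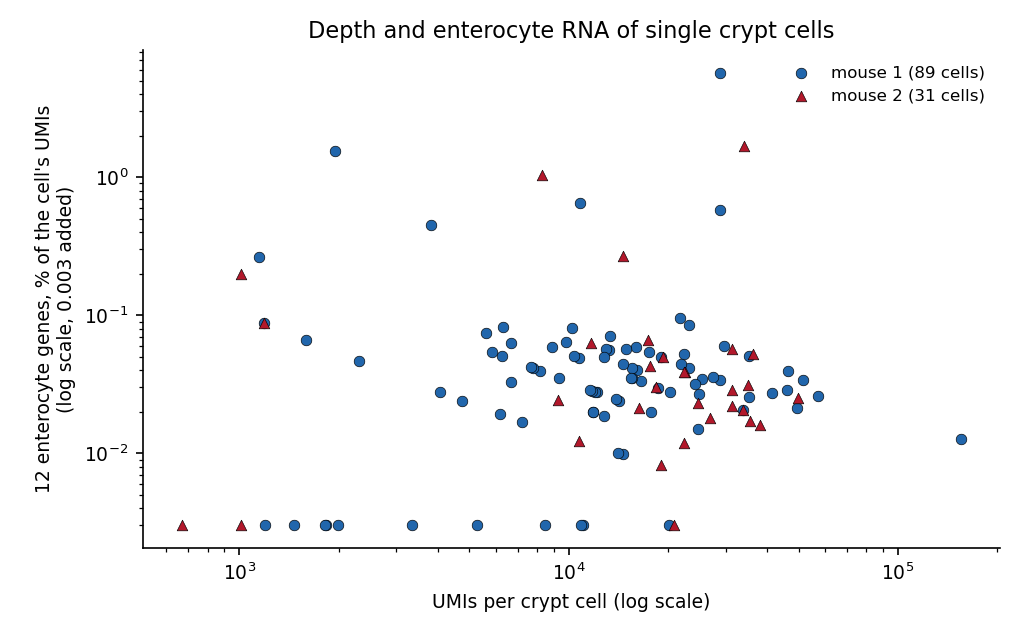
UMIs per crypt cell (horizontal axis, log scale) against the share of its UMIs in 12 enterocyte genes (%, vertical axis, log scale with 0.003 added), with mouse 1 and mouse 2 marked. Most cells lie near the floor, and a few cells in each mouse reach 5.67% and 1.69%. The deepest cell, at 155278 UMIs, stands apart on the horizontal axis.

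The deepest crypt cell, of mouse 1, had 155278 UMIs and 7709 genes, and held 10.0% of the crypt cell UMIs of that mouse. Tff2, a trefoil peptide of mucous neck and Brunner's gland cells, made up 69520 of them (44.8%) and Gkn3 14389 (9.27%). It also held 2737 UMIs of the gastric mucin Muc6, 155 of Pgc, 30 of Mki67 and 29 of Top2a, and none of Lgr5. Without it Tff2 was at 24.3 CPM in mouse 1, and no crypt cell of mouse 2 had a Tff2 UMI. With cells over 60000 UMIs removed, 6 rather than 8 crypt base genes were called against the other Epcam cells, where Sox9 and Prom1 missed the threshold.

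Plasma cell transcripts were lower in crypt cells than in the other Epcam cells. Of the 10 genes that fell furthest against the other Epcam cells, 9 were of immunoglobulins or B and plasma cells, namely Iglv1, Igkc, Iglc1, Iglc2, Igha, Jchain, Cd79a, Tnfrsf13b and Tnfrsf17, and the other was the Paneth defensin Defa30. Jchain was at 1937 and 803 CPM in crypt cells and 41881 and 51667 in the other Epcam cells (log2 fold change -6.04, edgeR adjusted p = 0.00287). Against the other epithelial cells, at 4176 and 2785 CPM, the log2 fold change was -3.12 (edgeR adjusted p = 0.0558, and 0.000549 with the mouse as a block). In crypt cells 1 cell of each mouse held 62.9% and 85.9% of the Jchain UMIs, and Igkc made up 26.9% and 9.76% of the UMIs of that cell. Neither cell had a UMI of the 8 epithelial genes, so that neither was in the fit against the other epithelial cells. Without these cells Jchain was at 728 and 117 CPM in crypt cells. All 8 B and plasma cell genes tested fell against the other Epcam cells, and 1 of 6 against the other epithelial cells, or 4 with the mouse as a block. Their share in the classes moves with the calls against the other Epcam cells, and its part in them was not tested. When the other epithelial cells were the comparison, the 10 lowest were genes of absorptive cells such as Apoc3, Apoa1, Fabp1, Prap1, Cybrd1, Sult1b1 and Chp2, with Spink1, Clec2h and Smim24.

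Against all other kept cells the genes with the highest log2 fold change included epithelial and secretory genes. Clca3b led at 102 and 107 CPM in crypt cells against 0.604 and 0.230 (7.17, edgeR adjusted p = 0.00137), and it rose against the other epithelial cells as well (5.34, edgeR adjusted p = 0.00572). Cldn2, the pore-forming claudin of crypt tight junctions, was at 97.9 and 66.3 CPM against 1.61 and 0.546 (5.50, edgeR adjusted p = 0.00335). Etv4, an ETS factor, was at 28.3 and 39.2 CPM (5.45, edgeR adjusted p = 0.00124), Clic6, a chloride channel protein, at 49.6 and 48.2 (5.42, edgeR adjusted p = 0.00179), and Foxa3, of goblet and endodermal cells, at 43.8 and 72.3 (5.33, edgeR adjusted p = 0.00122). Spdef, Cdo1, Msi1, Pla2g2f and Slc12a8 made up the rest of the 10. Spdef was found in only 4 of the 89 crypt cells and 6 of the 31, and 1 cell of each mouse held 50% and 42.4% of its UMIs. The rule required an Epcam UMI, so that rises of epithelial genes in part describe the choice. The 10 that fell furthest belong to T cells, cytotoxic cells and other leukocytes, such as Gzma, Ccl5, Cd3e, Cd8a, Tyrobp and Fcer1g. All 10 T and innate lymphoid genes, all 10 B and plasma cell genes and all 10 myeloid genes of the lists fell. Ptprc, which the rule set at 0, is a leukocyte gene, so that these falls in part describe the choice. The other Epcam cells also had no Ptprc UMI. In them the B and plasma cell genes made up 4.46% and 5.46% of UMIs, beside 4.41% and 2.74% in all other kept cells. The part of the rule in these falls was not tested.

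Within the crypt cells, those with an Lgr5 UMI (15 and 13 cells) were set against those without (74 and 18). They were deeper, at a median of 24768 and 22503 UMIs against 12119 and 17893.5. Their median mitochondrial share was also higher, at 0.134% and 2.93% against 0.0337% and 0.00508%. The part of either difference in the results of this split was not tested. Of 4396 genes tested 3 were called (0.0682%), all lower with Lgr5, by edgeR with 293 at an unadjusted p under 0.05, and 6 with the mouse as a block. They were Fabp1, Rbp2 and Fabp2, all carriers of lipid or retinol in enterocytes. Fabp1 was at 2.72 and 6.0 CPM with Lgr5 and at 345 and 515 without (log2 fold change -6.71 ± 0.49, edgeR adjusted p = 0.00106), Rbp2 at 5.44 and 15.0 against 468 and 799 (-6.09, edgeR adjusted p = 0.00131), and Fabp2 at 109 and 117 against 615 and 890 (-2.88, edgeR adjusted p = 0.00659).

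Without the single crypt cell of each mouse that had the most enterocyte UMIs, no gene was called, with 263 at an unadjusted p under 0.05. The log2 fold changes were then -4.52 for Fabp1 (edgeR adjusted p = 0.218), -3.51 for Rbp2 (edgeR adjusted p = 0.218) and -1.36 for Fabp2 (edgeR adjusted p = 0.708). The 3 calls thus rest on 1 cell in each mouse.

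None of 13 WNT genes tested in this split was called by edgeR, and 5 passed an unadjusted p under 0.05, with a median log2 fold change of 0.80. Among the 15 crypt base genes none was called and 6 passed unadjusted, with a median of 0.43. Prox1 was at 29.9 and 126 CPM with Lgr5 and 11.8 and 15.1 without (2.40, edgeR adjusted p = 0.583), and Axin2 at 103 and 153 against 106 and 127 (log2 fold change 0.00, edgeR adjusted p = 1.00). Aqp4, a water channel of crypt base cells, was at 57.1 and 51.0 CPM with Lgr5 and 13.5 and 6.05 without (2.08, edgeR adjusted p = 0.516). Clca3b was at 264 and 174 CPM with Lgr5 and 51.5 and 39.4 without (2.06, edgeR adjusted p = 0.133, and 0.0422 with the mouse as a block). Of 30 G2 and M genes none was called, and 7 passed unadjusted, with a median of -0.61. Their share of UMIs had a median of 0.303% and 0.0858% in cells with Lgr5 and 0.309% and 0.544% without. The gap in mouse 2 was not seen in mouse 1.

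The crypt cells with Mki67 or Top2a (81 and 27) could be set against only 8 and 4 without. No gene of 4566 was called by edgeR (0.0%), with 492 at an unadjusted p under 0.05, and DESeq2 called 6. With the mouse as a block 28 were called. Of 23 S phase genes 14 passed an unadjusted p under 0.05 with a median log2 fold change of 2.31, and of 28 G2 and M genes 18 did with a median of 2.24. These genes accompany the 2 that made the split.

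Apc itself was read as a 3′ count, which does not show the floxed deletion. It stood at 58.6 and 73.8 CPM in crypt cells, 74.4 and 63.4 in the other epithelial cells and 24.1 and 33.6 in all other kept cells.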

How the data were processed

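Single-cell RNA sequencing was performed on 2 APC mice, 1 library each. The deposited matrices hold raw UMI counts per gene and barcode, which the authors made with the count tool of Cell Ranger 6.1.2 on mm10; the annotation release is not given in the sources used here. The filters of the study were applied: mitochondrial genes below 5% and haemoglobin genes below 10% of a cell's UMIs, more than 400 UMIs and more than 100 genes. The files hold 31053 genes, and 3 genes of the lists, Amy2b, Ccn1 and Ccn2, were not analysed here.

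The counts were summed per mouse and cell class, so that n is 2 mice and no cell was a replicate. Classes were compared with edgeR 4.0.16 in R 4.3.3, with the quasi-likelihood test, TMM scaling, filterByExpr and two-sided p-values adjusted by Benjamini-Hochberg over all genes tested. The 10 genes of the rule (Epcam, Ptprc and the 8 markers) were left out of the tests. Standard errors were taken as the log2 fold change over the root of the F statistic. The scripts were first tested on simulated counts. Levels are CPM of a class, and intervals of shares are exact Clopper-Pearson 95% intervals, which cover counting error only.

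Class sums with the same number come from the same mouse and are paired by that. Their deviations correlated across genes at r = 0.514 against the other Epcam cells, 0.535 against the other epithelial cells, 0.295 against all other kept cells, 0.210 in the Lgr5 split and 0.312 in the Mki67 or Top2a split. The study names no test for these classes; the mouse was an alternative and not in the main design.

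The cells, gene lists and alternatives were chosen with earlier results of these data known. The lists held genes of the crypt base, WNT targets, S phase, G2 and M phase, Notch and fate, regeneration, intestinal transcription factors, MHC class II, the methionine cycle and the nucleolus, and markers of other cell types. Beyond the lists, genes were named by rank. In each comparison with other cells these were the 10 largest changes each way, and in each split the 5 largest, among genes with an adjusted p under 0.05, the same direction in both mice, at least 3 UMIs in every sum and at least 20 UMIs in each sum of the higher class. Unnamed gene models and mitochondrial and ribosomal protein genes were passed over. For shares of cells across depths, cells were thinned to 2000 UMIs. This was done for crypt cells, the other Epcam cells and all other kept cells, and not for the other epithelial cells. Scrublet, in scanpy 1.11.5, called 1 cell of mouse 1 and 0 of mouse 2 as doublets and so did not work as a caller; no doublet was removed in the main classes, and the highest 8% of scores were removed as an alternative. Other alternatives were the mitochondrial limit, 2 or 4 marker genes, epithelial genes required, cells with at least 5000 UMIs, enterocyte-bearing comparison cells, no filter on low counts, and DESeq2 1.42.0.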

Additional observations from a re-analysis of the deposited data

Results flagged for a closer look

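Cells removed by the filters were outside every comparison. Among the 1704 removed cells of mouse 1, 12 met the Epcam, Ptprc and marker rule of the crypt cells (0.704%), and among the 1843 of mouse 2, 4 did (0.217%). Both numbers lie above the limit of 3 that a count of 0 allows. With 2 mice in the group no test of a single library against its group was possible.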

How the results depend on the processing

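The alternatives were followed for 65 pairings of a gene with a comparison, some genes entering under more than 1 comparison. Of their 828 values, 733 kept direction and side of the threshold, 76 lost the threshold, 9 gained it and 10 turned direction. Against the other Epcam cells 2949 genes were called. The count was 1849 with 2 of 8 epithelial genes and 1865 with 4 of 8, and the replicate block by mouse gave 4630. On the TMM scale Cd44 turned to 1.71, 1.86 and 1.76, Hopx to -0.66, -0.72 and -0.65 and Hnf4a to -0.42, -0.42 and -0.46, with 2 of 8 epithelial genes, 4 of 8, and comparison cells bearing 3 enterocyte genes. Ly6a turned to 0.13 with 4 of 8. The cause was not tested. Counts against all other kept cells stayed between 4279 and 6094, beside 4839. The Lgr5 split gave 3 calls, and 61 with 2 marker genes, 0 with 4 marker genes, 0 without the crypt cell of each mouse with most enterocyte UMIs, 6 with the replicate block, 148 without the filter on low counts and 7 by DESeq2. The Mki67 or Top2a split gave 0 calls, and 28 with the replicate block, 218 without the filter and 6 by DESeq2. Where the replicate block moved a printed count of a list by over 1.5 times, or changed the call of a gene whose test is printed, its value stands beside the result; the other printed list counts moved by 1.5 times or less. The share of crypt cells in mouse 1, 1.12%, was 1.70% with 2 marker genes and 0.856% with 4. The setting with 4 of 8 epithelial genes, that without cells over 60000 UMIs and that without the enterocyte-rich cells were chosen after seeing the data. Leaving out 1 mouse leaves no residual degrees of freedom, so no count of genes could be fitted without either, and values are given per mouse. With 31 crypt cells in mouse 2, genes seen in few cells rest on few UMIs.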
